A study of Mus musculus with 2 samples.

Results

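Small nucleolar RNAs (snoRNAs) and small Cajal body RNAs (scaRNAs) guide chemical changes on ribosomal and spliceosomal RNA, and a few loci of the mouse genome are annotated both as such a guide and as a microRNA gene. The genes described here are Mir1839, Mir664, Snord43 and Mir6236, 4 of the 2202 genes annotated as microRNA genes in the deposited tables. They were chosen by symbol, through their Ensembl identifiers in GENCODE M21, as microRNA genes that lie within or resemble a snoRNA, a scaRNA or ribosomal RNA. The rule itself uses no measured value, but the choice was made with earlier results of these data known. Their levels were measured by microRNA-seq, which sequences short RNA, in adrenal gland tissue of C57BL/6J mice from The Jackson Laboratory. The adrenal gland makes steroid hormones in its cortex and catecholamines in its medulla.

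The series holds 1 group of 2 libraries, called replicate 2 and replicate 1 after the labels. Both were made from total RNA with a size range labelled as below 30, with no unit given. The labels number them as biological replicates 2 and 1 and name a separate tissue sample for each, but give both the same donor identifier and do not state separate animals. Age and developmental stage are labelled unknown, and the labels on sex differ from each other. The spread between the libraries may therefore be technical, and every p-value below compares these libraries only and knows counting error only.

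In the classical microRNA pathway a hairpin is released by Drosha, cut by Dicer and loaded as a short strand into Argonaute, where the seed (bases 2 to 8) pairs with target messengers. SnoRNAs fall into a C/D class, which guides 2′-O-methylation and carries the boxes C and D near its ends, and an H/ACA class, which guides pseudouridylation, folds into a pair of hairpins and ends in the letters ACA followed by a short tail. ScaRNAs do the same work in Cajal bodies on the small nuclear RNAs of the spliceosome. Stable fragments of such guides have been found in Argonaute in human and mouse cells, so a locus can be annotated under both names.

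The sequences of Mir1839, Mir664 and Snord43 are shown because they carry what links these genes to other RNA classes. Mature microRNA sequences come from RefSeq on GRCm38.p6, with the seed in capitals. The RefSeq table gave none for Snord43.
mmu-miR-1839-5p: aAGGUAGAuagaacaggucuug
mmu-miR-664-5p: cUGGCUGGggaaaaugacugg
mmu-miR-664-3p: uAUUCAUUuacuccccagccua
Each of these seeds occurred in only 1 of the mouse mature sequences of that RefSeq table, so Mir1839 and Mir664 shared no seed with each other or with a microRNA family in it.

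The longer sequences come from GENCODE M21 transcripts on mm10 and are given 5′ to 3′ on the strand of the gene. In the first 2 lines the capitals mark the part of the guide RNA that is also the microRNA gene. In the Snord43 line they mark the letters described below for boxes C and D.
Mir1839 scaRNA (chr7:81529855-81529981, plus strand): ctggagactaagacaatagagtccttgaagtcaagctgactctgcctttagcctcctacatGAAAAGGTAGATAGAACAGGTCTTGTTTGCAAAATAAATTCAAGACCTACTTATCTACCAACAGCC
Snora36b with Mir664 (chr1:185242907-185243038, plus strand): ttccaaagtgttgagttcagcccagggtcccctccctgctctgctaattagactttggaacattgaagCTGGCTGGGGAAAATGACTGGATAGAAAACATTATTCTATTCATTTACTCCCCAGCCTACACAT
Snord43 (chr15:80082847-80082954, minus strand): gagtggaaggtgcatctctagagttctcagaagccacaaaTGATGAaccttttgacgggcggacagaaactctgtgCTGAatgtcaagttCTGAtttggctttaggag

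Mir1839 (ENSMUSG00000104618.1, chr7:81529916-81529988, 73 bases) lay in the 3′ part of a scaRNA gene that bears the same symbol, in an exon of the long noncoding RNA gene 2900076A07Rik. It began at base 62 of the 127 bases of the scaRNA and ran 7 bases past its 3′ end, so that 66 of its 73 bases were shared. Mir664 (ENSMUSG00000105770.1, chr1:185242975-185243043, 69 bases) lay in the same way in Snora36b, in an intron of Rab3gap2, a gene for a subunit of the Rab3 GTPase-activating complex. It began at base 69 of the 132 bases of Snora36b, ran 5 bases past the end, and shared 64 of its 69 bases. Apart from these, Mir664 aligned to another annotated snoRNA, Gm25410, at 78.1% identity over 64 bases. Both microRNA genes thus covered the 3′ part of a guide RNA. Both guide RNAs had the letters ACA just before their last 3 bases, the place of the ACA box of an H/ACA RNA, and 301 of 1558 snoRNA and scaRNA genes of the annotation (19.3%) had them there.

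Snord43 (ENSMUSG00000105167.1, chr15:80082847-80082954, 108 bases) lay in an intron of Rpl3, which encodes a protein of the large ribosomal subunit. Its human counterpart is a C/D guide of ribosomal RNA methylation. The annotation gave this row the microRNA type and placed no separate snoRNA gene over it on its own strand. TGATGA, the core of box C, began at base 41, and CTGA, the letters of box D, at bases 77 and 91. RefSeq placed a 48-base Snord43 at bases 49 to 96 of this gene, which holds both matches of the box D letters and starts after those of box C. The core of box C occurred in 38 of the 2202 microRNA genes (1.73%), and in 11 of these the letters of box D followed it. These letters are a match and not an observed box, and matches were sought on the strand of the gene only.

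Mir6236 (ENSMUSG00000098973.1) lay wholly inside no host gene and overlapped no gene of another RNA class on its own strand. Partial overlap with other genes, and genes of those classes on the opposite strand, were not searched. Its likeness to ribosomal RNA was not analysed here. The annotation used here therefore did not link Mir6236 to a snoRNA on its own strand, and it is called by its symbol below.

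The predicted folds of the other 3 genes also differed from each other. The lowest free energy per base was -0.407 kcal/mol for Mir664, -0.301 for Mir1839 and -0.287 for Snord43, against a median of -0.369 over all 2202 genes. Bases in pairs made up 60.9% of Mir664, 49.3% of Mir1839 and 68.5% of Snord43, against a median of 65.7%. Mir664 had the lowest energy per base of the 3, at percentile 37.1 of all genes, and Mir1839 and Snord43 lay above, at percentiles 76.2 and 81.9. A higher energy per base means a less stable predicted fold.

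Counted reads on the strand of a microRNA gene came to 6570375 of 14457994 reads (45.4%) in replicate 2 and to 9137907 of 18743064 reads (48.8%) in replicate 1. A count of 0 allows a level of up to 0.457 CPM in replicate 2 and up to 0.328 CPM in replicate 1. CPM is the count on the strand of the gene per 1000000 such counts of the library, and intervals on it are exact 95% binomial intervals. Intervals and limits cover counting error only, and the reads carry no molecular identifiers. Reads with several alignments, 36.0% of the reads in replicate 2 and 35.9% in replicate 1, are not in the gene counts. Reads of a locus with near-identical copies elsewhere are thus missing from its level.

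All 4 genes were read in both libraries, only on their annotated strand, and all 4 were higher in replicate 2. Their summed level was 1758 CPM in replicate 2 and 693 CPM in replicate 1, which is 0.176% of the counts in replicate 2 and 0.0693% in replicate 1. Mir1839 supplied 78.8% of that sum in replicate 2 and 72.2% in replicate 1. None of the 4 had a count on the opposite strand in either library.

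Mir1839, which overlaps a scaRNA, was the most abundant. It had 9102 counts in replicate 2 and 4575 counts in replicate 1. Its level was 1385 CPM (95% interval 1357 to 1414) in replicate 2 and 500.7 CPM (486 to 515) in replicate 1. It ranked 66 of 2202 genes in replicate 2 and 107 in replicate 1. Over both libraries it averaged 943 ± 626 CPM (SD, n = 2) and took rank 77, between Mir107 at 953 ± 71.3 CPM and Mir487b at 929 ± 59.0 CPM. Its mean lay within 1 SD of both neighbours, and its own SD was the widest of the 3.

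Mir664, which overlaps Snora36b, had 978 counts in replicate 2 and 1031 counts in replicate 1, or 148.9 CPM (140 to 158) in replicate 2 and 112.8 CPM (106 to 120) in replicate 1. It averaged 131 ± 25.5 CPM (SD, n = 2), at rank 171. Snord43 had 1298 counts in replicate 2 and 575 counts in replicate 1, or 197.6 CPM (187 to 209) in replicate 2 and 62.9 CPM (57.9 to 68.3) in replicate 1. It averaged 130 ± 95.2 CPM, at rank 172. The 2 genes stood next to each other in the order of mean level, and their means differed by less than either SD. Their order was not the same in the libraries: Snord43 was above Mir664 in replicate 2 and below it in replicate 1. The genes around this pair were Mir26a-2 at 132 ± 170 CPM above and Mir326 at 130 ± 33.8 CPM below, both within 1 SD.

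Mir6236 was the lowest of the 4. It had 173 counts in replicate 2 and 153 counts in replicate 1, or 26.3 CPM (22.6 to 30.6) in replicate 2 and 16.7 CPM (14.2 to 19.6) in replicate 1. It averaged 21.5 ± 6.78 CPM (SD, n = 2), at rank 251, between Mir106a at 22.8 ± 0.865 CPM and Mir184 at 21.4 ± 0.0999 CPM. Its mean differed from theirs by less than its own SD. For each of the 4 genes the CPM intervals of the libraries did not overlap. How many other genes had such intervals was not counted, so this does not set the 4 genes apart. In the test below, another measure with another scaling, 239 of the 426 genes tested (56.1%) passed as different between the libraries.

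**Figure D1:**
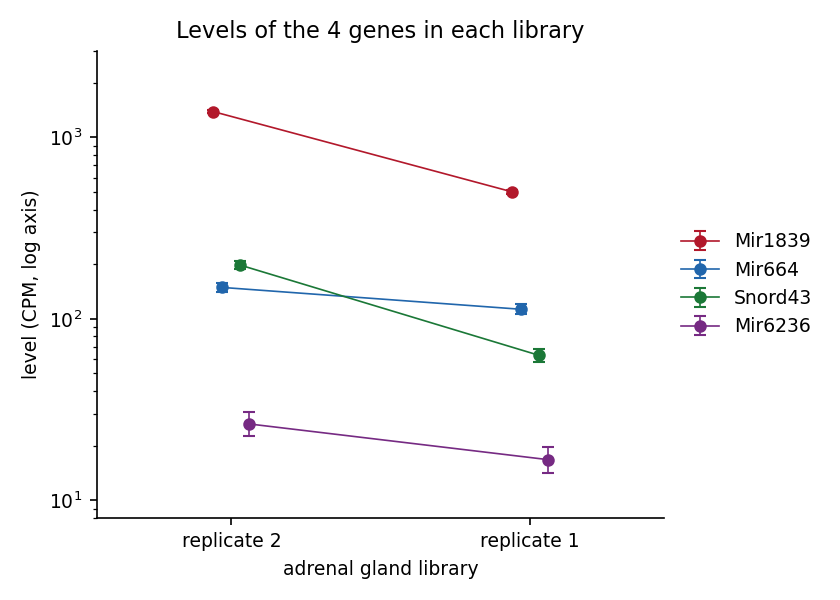
Level of Mir1839, Mir664, Snord43 and Mir6236 in CPM (log axis) in the replicate 2 and replicate 1 libraries, as points with exact 95% counting intervals, with the points of a gene joined. Every gene is higher in replicate 2, and Snord43 and Mir664 change places between the libraries.

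The difference between the libraries was tested for all genes with at least 20 counts over both, with an exact two-sided binomial test against TMM-scaled library sizes and Benjamini-Hochberg adjustment over the 426 genes tested. Of these, 239 (56.1%) passed an adjusted p of 0.05. Replicate 2 was higher in 110 (25.8% of the genes tested) and replicate 1 in 129 (30.3%). All 4 genes described here were among the 110. Scaled by total counts instead, 150 genes were higher in replicate 2 and 93 in replicate 1, since TMM lowers all log2 ratios of replicate 2 over replicate 1 by 0.10, and the 4 genes stayed higher in replicate 2.

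Snord43 and Mir1839 differed most. The fitted log2 ratio of replicate 2 over replicate 1 was 1.55 for Snord43 (95% counting interval 1.40 to 1.69, 2.92-fold, exact binomial test, adjusted p = 1.1e-110). For Mir1839 the log2 ratio was 1.37 (1.31 to 1.42), which is 2.58-fold. These were the 7th and the 14th highest of the 426 ratios. By the size of the ratio in either direction they ranked 18 and 27, and the median size over all tested genes was 0.29 on the log2 scale.

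Mir664 and Mir6236 differed less. The log2 ratio of Mir664 was 0.30 (0.17 to 0.42, 1.23-fold, exact binomial test, adjusted p = 1.2e-05), and it ranked 212 of 426 by size. The log2 ratio of Mir6236 was 0.55 (0.23 to 0.87, 1.46-fold, exact binomial test, adjusted p = 0.00153), at rank 127. The size of the Mir664 ratio was thus close to that of the median gene, although its counts set it apart from 0.

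Genes of like level give a scale for these ratios. Of the 57 other tested genes within 2-fold of the mean level of Mir1839, 1 had a ratio as high, and the median size of their ratios was 0.21 on the log2 scale. Of the 64 around Snord43, 1 was as high, with a median size of 0.28. Of the 63 around Mir664, 13 were as high, and of the 64 around Mir6236, 9 were. By size in either direction, 3 of these genes were as large for Mir1839, 1 for Snord43, 29 for Mir664 and 19 for Mir6236. Snord43 and Mir1839 thus stood near the top of their levels, and Mir664 and Mir6236 stood inside the spread of theirs. This window was chosen after the values were seen and carries no test.

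**Figure D2:**
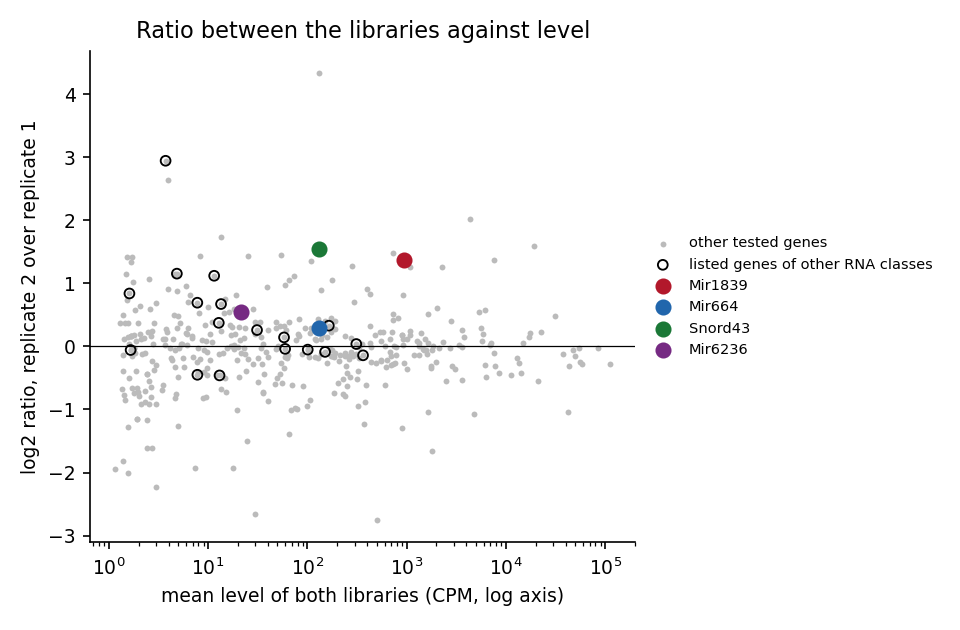
Log2 ratio of replicate 2 over replicate 1 against the mean level of both libraries in CPM (log axis) for the 426 tested genes. The 4 genes are in colour, and open circles are other genes listed by overlap with another RNA class or by symbol. Snord43 (1.55) and Mir1839 (1.37) lie at the upper edge of the genes of like level, and Mir664 (0.30) and Mir6236 (0.55) among them.

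The 4 genes did not differ by a common factor. The pairs were compared by Fisher's exact test on the counts, a test chosen after the values were seen, with p-values adjusted over the 6 pairs. Mir1839 had 9.31 counts for each count of Mir664 in replicate 2 and 4.44 in replicate 1 (Fisher's exact test, adjusted p = 4.1e-52). Mir664 had 0.753 counts for each count of Snord43 in replicate 2 and 1.79 in replicate 1 (Fisher's exact test, adjusted p = 1.1e-38). Mir1839 and Snord43 kept nearer to each other, at 7.01 counts of Mir1839 for each of Snord43 in replicate 2 and 7.96 in replicate 1, a log2 difference of -0.18 (Fisher's exact test, adjusted p = 0.0222).

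Mir6236 fell between these pairs. Snord43 had 7.50 counts for each count of Mir6236 in replicate 2 and 3.76 in replicate 1 (Fisher's exact test, adjusted p = 4.7e-08). Mir1839 had 52.6 counts for each count of Mir6236 in replicate 2 and 29.9 in replicate 1 (Fisher's exact test, adjusted p = 1.1e-06). Mir664 and Mir6236 were not told apart at this depth, with 5.65 counts of Mir664 for each of Mir6236 in replicate 2 and 6.74 in replicate 1 (Fisher's exact test, adjusted p = 0.152). The larger ratios were thus those of Mir1839 and Snord43.

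The genes most like each of the 4 were taken as the 3 at the smallest distance from it. Distance was measured in the log2 of the mean CPM over the 2 libraries and the log2 ratio together. For Mir1839 these were Mir298 (10333 counts in replicate 2 and 5601 in replicate 1, log2 ratio 1.26), Mir31 (1.49) and Mir16-1 (0.81). For Snord43 they were Mir24-1 (1043 counts in replicate 2 and 528 in replicate 1, log2 ratio 1.35), Mir451a (1.06) and Mir543 (0.89). None of these 6 is annotated as a guide RNA. For Mir664 they were Mir326 (0.44), Mir30b (0.17) and Mir669o (0.12), and for Mir6236 they were Mir1947 (0.59), Mir8114 (0.30) and Mir129-1 (0.29).

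Other microRNA genes of the tables overlap guide RNAs as well. By the annotation, 24 genes overlapped a snoRNA or scaRNA gene on their own strand, Mir1839 and Mir664 included, and their summed level was 2675 CPM in replicate 2 and 1635 CPM in replicate 1. Of these 24, 15 were deep enough to test and 8 were at 0 in both libraries. Of the 15 tested, 8 passed as higher in replicate 2 (53.3%, against 25.8% of all tested genes) and only 1 as higher in replicate 1 (6.67%, against 30.3%). Their median log2 ratio was 0.30, against -0.03 over all 426. Without Mir1839 and Mir664, 6 of 13 passed as higher in replicate 2 and 1 in replicate 1, the median was 0.26, and the sum was 1141 CPM in replicate 2 and 1022 CPM in replicate 1. A list of this kind gets no test, and Mir1839 alone made most of the difference between the summed levels.

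The other genes inside scaRNAs did not share one direction with Mir1839. Mir1843a, in Scarna3b, had 2360 counts in replicate 2 and 3372 in replicate 1 and was higher in replicate 1 (log2 ratio -0.14, -0.22 to -0.07, exact binomial test, adjusted p = 0.000617), a call that total-count scaling ended. Mir1843b, in Scarna3a, had 2145 counts in replicate 2 and 2707 in replicate 1 and did not pass (log2 ratio 0.04, exact binomial test, adjusted p = 0.488). Mir6516, in an annotated scaRNA gene in an exon of Snhg20, did not pass either (log2 ratio 0.14, exact binomial test, adjusted p = 0.209). Mir3069, in Scarna13, was named after its values were seen, and had 44 counts in replicate 2 and 7 in replicate 1 (log2 ratio 2.94, 1.86 to 4.42, exact binomial test, adjusted p = 1.6e-09). The 5 genes in scaRNAs thus split into 2 called for replicate 2, 1 called for replicate 1 and 2 not called. Mir1843a and Mir1843b hold near-copies of a mature sequence, and reads that align to several places are not counted, so both levels are uncertain.

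The mature sequences of that pair show how alike they are, with the seed in capitals, from RefSeq on GRCm38.p6. The letters of miR-1843b-5p occurred in 2 of the 2202 microRNA gene sequences from GENCODE M21, and neither seed is that of Mir1839.
mmu-miR-1843a-5p: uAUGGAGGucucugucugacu
mmu-miR-1843b-5p: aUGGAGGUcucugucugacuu

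Mir664 was 1 of the 10 tested genes that overlap a snoRNA. Of these 10, Mir664 included, 6 passed, each with its higher level in replicate 2. Over all tested genes 56.1% passed and 25.8% were higher in replicate 2. The median log2 ratio of the 10, Mir664 included, was 0.31. Mir3068, inside a snoRNA gene of the same symbol in an intron of Alkbh1, was the nearest of them to Mir664 in level and ratio. It had 1242 counts in replicate 2 and 1281 in replicate 1 (log2 ratio 0.33, 0.21 to 0.44, exact binomial test, adjusted p = 3.5e-08). Gm49347 in Snora74a (106 counts in replicate 2 and 63 in replicate 1, log2 ratio 1.12), Mir1291 in Snora34 (log2 ratio 1.15), Mir677 (0.69) and Gm47277 (0.67) also passed, the last 3 with 26 to 112 counts in each library. Mir5121 at Snord33 (log2 ratio 0.26), mmu-mir-3535 (-0.05), Mir1949 (-0.45) and Gm49346 at Snora81 (-0.06) did not. Whether Mir664 differs from these genes was not tested.

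**Figure D3:**
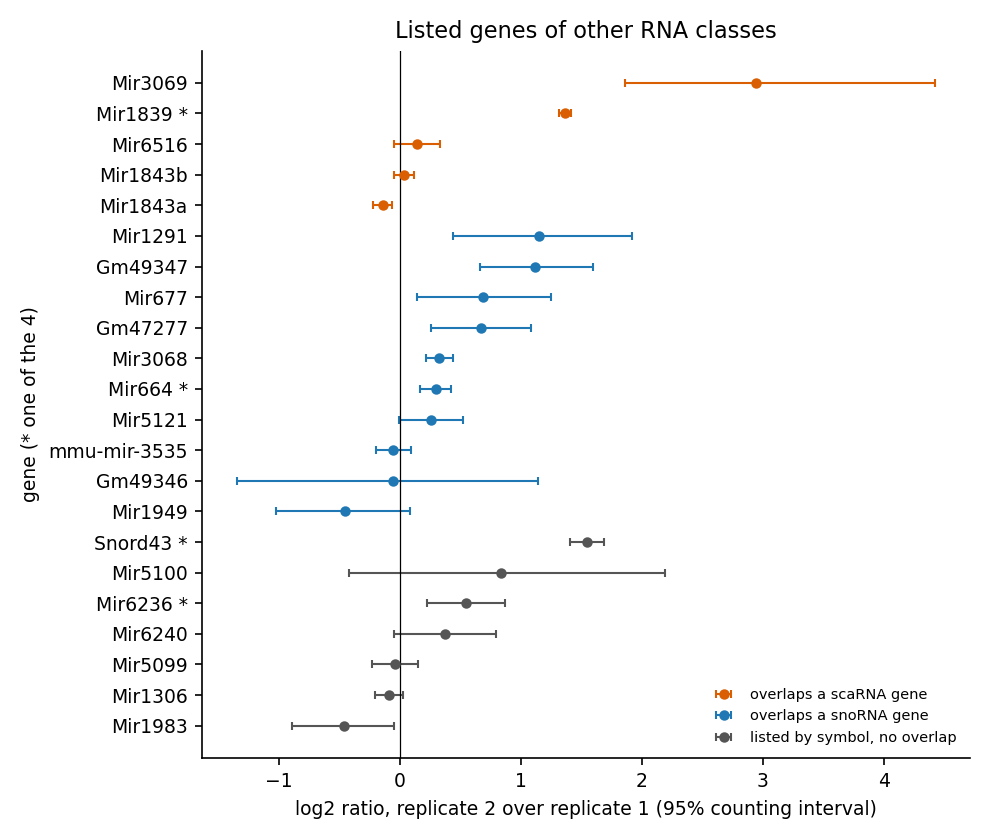
Log2 ratio of replicate 2 over replicate 1 with its exact 95% counting interval for the 22 tested genes of the list, with the 4 genes starred. Colours mark genes that overlap a scaRNA gene, genes that overlap a snoRNA gene, and genes listed by symbol with no overlap. Of the 22, 10 were higher in replicate 2 and 2 in replicate 1.

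Snord43 and Mir6236 overlap no guide RNA gene on their own strand and belong to the list by symbol. The other 5 tested genes listed by symbol alone had a median log2 ratio of -0.04, with none higher in replicate 2. The annotation places none of these 5, such as Mir1306 and Mir5099, over a gene of another RNA class on its own strand. Mir1983 was higher in replicate 1 (75 counts in replicate 2 and 134 in replicate 1, log2 ratio -0.46, exact binomial test, adjusted p = 0.0457), a call that ended under total counts (adjusted p = 0.148), under the median of ratios (0.0541) and with no filter (0.0825). Mir1306, Mir5099 and Mir5100 did not pass, and Mir6240 had 98 counts in each library, or 14.9 CPM in replicate 2 and 10.7 CPM in replicate 1 (log2 ratio 0.37, -0.05 to 0.79, exact binomial test, adjusted p = 0.115). The 4 microRNA genes that overlap an annotated ribosomal RNA gene were too low to test, and 2 of them were at 0 in both libraries. Over the whole list of 50 genes, 22 were tested, of which 10 (45.5%) were higher in replicate 2 and 2 (9.09%) in replicate 1, beside 25.8% and 30.3% of all tested genes. Under total counts no listed gene passed as higher in replicate 1. Without the 4 genes described here, 6 of 18 (33.3%) were higher in replicate 2, near the 25.8% of all tested genes, and 2 (11.1%) in replicate 1.

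Intronic guide RNAs often sit in genes of the translation machinery, as Snord43 does in Rpl3. Of 24 microRNA genes in hosts named Rpl, Rps, Snhg, Eef or Eif, Snord43 had the highest level, and 5 were tested. Snord43 and Mir3069 were higher in replicate 2, and Mir6516, Mir5121 and Gm49346 did not pass. Mir5121, in an exon of Rpl13a, was the only other tested gene with an Rpl host.

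The position of Mir1839 and Mir664 in their guide RNAs was shared by part of the group. Of the 15 tested microRNA genes that overlap a snoRNA or scaRNA gene, 8 ended within 10 bases of its 3′ end, Mir1839 and Mir664 among them. Among these 8, Mir677 covered all 72 bases of its snoRNA gene and not the 3′ part alone. The guide RNA ended in ACA and 3 more bases in 7 of the 15, and held the box C core followed by the box D letters in 3. Over all 1558 snoRNA and scaRNA genes of the annotation, the shares were 19.3% for ACA and 24.1% for the C and D letters.

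**Figure D4:**
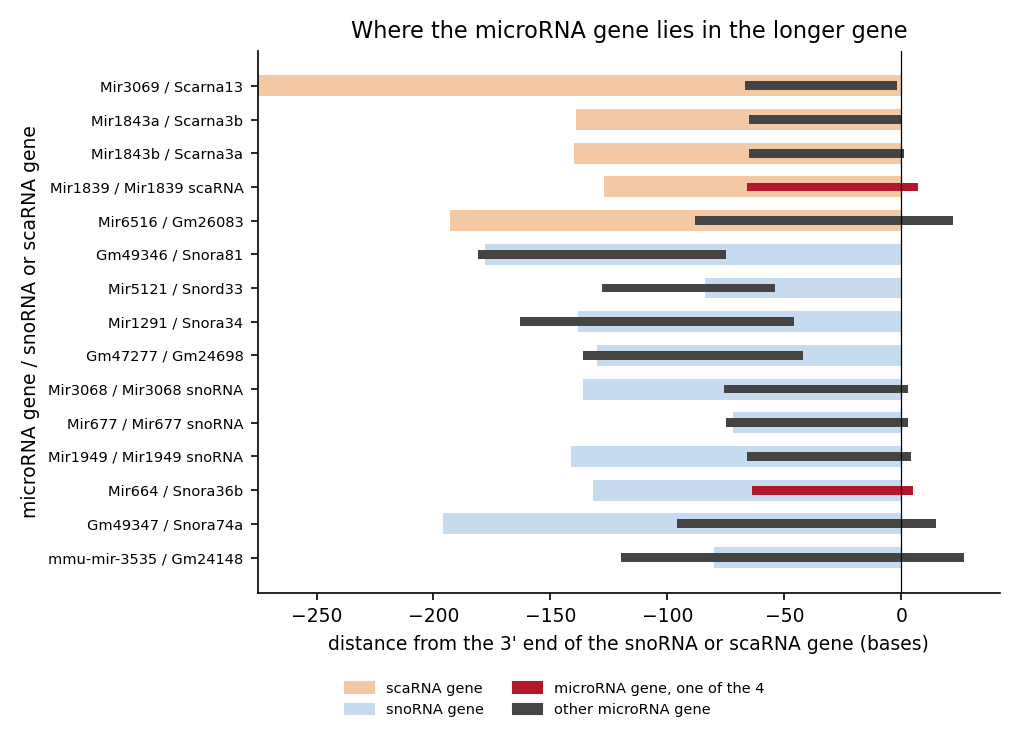
Position of the 15 tested microRNA genes (dark bars, red for Mir1839 and Mir664) along the scaRNA or snoRNA gene they overlap (light bars), as distance in bases from the 3′ end of that gene. Mir1839 runs 7 bases and Mir664 5 bases past the end.

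Markers of cell types that the tissue could hold were read in the same way. The 3 erythroid microRNA genes summed to 295 CPM in replicate 2 and 144 CPM in replicate 1, and Mir451a and Mir486 of the 3 passed as higher in replicate 2 (log2 ratios 1.06 and 0.81), while Mir144 had a ratio of 0.13 and did not pass. The 4 leukocyte genes summed to 1176 CPM in replicate 2 and 1319 CPM in replicate 1, and 3 of them passed as higher in replicate 1 and the other in replicate 2. The hepatocyte microRNA Mir122 had 71.5 CPM in replicate 2 and 128 CPM in replicate 1, and endothelial Mir126a had 54325 CPM in replicate 2 and 61677 CPM in replicate 1. The 4 kidney genes summed to 118 CPM in replicate 2 and 112 CPM in replicate 1, and the 5 epithelial genes to 52.7 CPM in replicate 2 and 49.2 CPM in replicate 1. Of the 3 kidney genes tested, Mir204 passed as higher in replicate 2 (log2 ratio 0.29) and Mir192 in replicate 1 (-0.29). Of the epithelial genes, Mir200b passed as higher in replicate 2 (0.55), Mir429 in replicate 1 (-0.82), and 3 did not pass. The 7 striated muscle genes summed to 1.67 CPM in replicate 2 and 1.09 CPM in replicate 1, with Mir1a-1, Mir1a-2, Mir133a-1, Mir133a-2 and Mir208a at 0 in both. Mir206 (3 counts in replicate 2 and 2 in replicate 1) and Mir499 (8 counts in each library) were too low to test. Mir375 and Mir7b, known from neuroendocrine cells, summed to 51451 CPM in replicate 2 and 53659 CPM in replicate 1. The list also named Mir7a-1 and Mir7a-2, but no gene of the data bore these symbols. Mir7-1 (275 CPM in replicate 2 and 272 CPM in replicate 1) was not in the sum and did not pass. Mir7-2 (78.5 CPM in replicate 2 and 132 CPM in replicate 1) was not in it either and passed as higher in replicate 1.

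The leukocyte and neuroendocrine sums, Mir122 and Mir126a were lower in replicate 2 by CPM. The erythroid sum was higher in replicate 2, as were Mir1839, Mir664, Snord43 and Mir6236. The kidney and epithelial sums were slightly higher in replicate 2, but each held genes that passed in either direction. The striated muscle sum rested on too few counts to give a direction. The part of these sums in the higher level of the 4 genes in replicate 2 was not tested. Unmapped reads (13.7% in replicate 2 and 11.7% in replicate 1) and reads outside microRNA genes (4.83% in replicate 2 and 3.72% in replicate 1) also differed in that direction, and their part was not tested. In bulk tissue, fewer cells of a type and less RNA per cell cannot be told apart. The counts also do not separate a processed microRNA from another fragment of the guide RNA at the same place.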

How the data were processed

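Each library has a table of raw read counts, deposited by the authors, for 2202 microRNA genes on mm10 with GENCODE M21, per the description deposited beside the tables. Adapter trimming is pointed to in the labels' protocols. Aligner and counter were not given in the sources used here. The tables have no header. The columns were read from their layout and values as counts of both strands together, of the gene's own strand (used here) and of the strand against it. The 4 rows that name no gene (unmapped, several alignments, no feature, ambiguous) were left out of library sizes and tests.

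From these counts, CPM, TMM factors (edgeR 4.0.16, R 4.3.3) and the exact binomial test described above (scipy 1.17.1, Python 3.11.15) were computed, with 0.5 counts added to each library for a log2 ratio. edgeR's quasi-likelihood test could not be fitted, since 1 group of 2 libraries leaves no residual degrees of freedom between them. The binomial test was tested on data simulated with counting error only, which is what the test assumes. Such data hold no other spread between the libraries, so they check the computation only. A first criterion, on the share of simulated 2-fold changes recovered, was narrowly missed and was replaced, after that was seen, by criteria on calls in unchanged genes, bias and interval coverage, which were met. The test itself was not changed. DESeq2 1.42.0 gave the median-of-ratios size factors for an alternative. Folds were predicted with RNAfold 2.7.2, and transcripts were searched with blastn 2.17.0+.

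Gene names and positions come from GENCODE M21. The sequence of Mir6236 is not reported here. Named were the 4 genes, the listed genes with at least 10 counts in both libraries, the 3 nearest to each of the 4 in level and ratio, and the neighbours in the order of level. The list of 50 genes holds microRNA genes that overlap another RNA class on their own strand, and symbols taken from general knowledge. The 4 genes and the lists were chosen with earlier results of these data known.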

Additional observations from a re-analysis of the deposited data

How the results depend on the processing

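Other scalings (total counts, median of ratios), other filters on low counts (none, or at least 100 counts), counts on either strand and 1 added count left all 4 genes higher in replicate 2 and past the threshold, with log2 ratios of 1.35 to 1.47 for Mir1839, 0.29 to 0.40 for Mir664, 1.54 to 1.65 for Snord43 and 0.54 to 0.65 for Mir6236. The listed genes higher in replicate 1 numbered 2 with TMM, 0 under total counts and 1 with no filter. Those overlapping a snoRNA or scaRNA gene numbered 1 with TMM and 0 under total counts, an alternative added after seeing the data. Total counts shift every log2 ratio up by 0.10, and testing without a filter adjusts over 818 genes. Per all reads of the library, the mean level was 61.3 per 1000000 reads for Mir664 and 10.1 for Mir6236, by construction lower. Leaving out a library leaves 1 library, with no ratio and no spread. No paired analysis was possible because the series has 1 group. With 2 libraries and no stated separate animals, only counting error is known, and genes with few counts, such as Mir6236, carry wide intervals. Copies of the 4 genes elsewhere in the genome were not analysed here.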

Other observations

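Outside the list, 2 rows of the tables bear symbols in the style of transfer RNA genes. Of these, n-TSaga9 had 134 counts in replicate 2 and 151 in replicate 1, or 20.4 CPM in replicate 2 and 16.5 CPM in replicate 1, a level close to that of Mir6236 (log2 ratio 0.20, -0.15 to 0.55, exact binomial test, adjusted p = 0.349). The other, n-TStga1, had 5 counts in replicate 2 and 7 in replicate 1 and was not tested. Of the 9 microRNA genes that overlap a gene of the miscellaneous RNA class, none was deep enough to test and 5 were at 0 in both libraries.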
